A study of Mus musculus with 16 samples.

Results

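The dependence of the hypothalamic fasting response on the AgRP genotype was measured as an interaction: the fasting change in AgRP-/- mice minus the fasting change in AgRP+/- mice. All 16 of the 16 arrays of the study enter it, 4 in each of 4 groups chosen by sample title: AgRP-/- fasted, AgRP-/- fed ad lib, AgRP+/- fasted and AgRP+/- fed ad lib. It was fitted to the 13662 of 25697 probes whose value exceeded the median of the whole table, 5.12, in at least 4 arrays, and these probes carry 9530 named genes. The mice were males of a mixed strain background, and fasting lasted 30 h. AgRP-/- mice were compared with heterozygotes, so every mouse carried at least 1 altered copy of the gene, and no wild-type group is among these samples. The labels state no ages, no description of the allele and no link between arrays and animals, so an array may or may not be a separate animal. P-values therefore measure the spread between these arrays, which may be technical.

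Agouti-related peptide (AgRP) is an inverse agonist of the melanocortin receptors and is made with neuropeptide Y by a small population of arcuate neurons that fasting activates. Those neurons also release the inhibitory transmitter GABA. Fasting at the same time lowers leptin and insulin and raises circulating glucocorticoids, so a hypothalamic transcript can respond to fasting along routes that do or do not pass through the peptide. The interaction asks which responses differed in size when the peptide was missing.

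Values are log2 intensities, so a difference of 1 is a 2-fold change, and the precision is limited by the number of arrays. Defining peptides of the hypothalamus were strong: oxytocin (Oxt), melanin-concentrating hormone (Pmch) and galanin (Gal) read 12.4 to 13.3, 13.5 to 14.0 and 10.77 to 12.02 over the 16 arrays. The annotation names 0 probes Agrp, and the genotype labels were therefore not checked by the deleted gene. The pituitary transcripts Gh and Prl stood out in AgRP-/- fed replicate 1 (6.14 and 5.17) and AgRP+/- fed replicate 2 (7.78 and 7.34). A list of 14 kept midbrain dopamine markers averaged 7.16 to 7.31 in AgRP-/- fasted, 6.28 to 6.92 in AgRP-/- fed, 6.49 to 7.37 in AgRP+/- fasted and 6.42 to 6.86 in AgRP+/- fed arrays. Higher dopamine markers therefore accompanied fasting in AgRP-/- mice on every array and in AgRP+/- mice with overlap, and the interaction of this mean was 0.077. In bulk tissue fewer cells of a type and less RNA per cell cannot be told apart. Of the 14 markers 8 had an interaction above 0 and 6 below. The mean of the dopamine transcripts Slc6a3, Chrna6 and Th alone had a larger interaction of 0.411, which was not tested. In AgRP+/- fasted replicates 1 to 4 this mean read 8.81, 8.68, 8.04 and 7.17, so the value leans on a low replicate 4. With that mean as a covariate, the shared and averaged calls numbered 1 and 33 in place of 33 and 572.

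No response was called different between the genotypes: the interaction passed an adjusted p of 0.05 in limma for 0 of the 13662 probes (0% of those tested). Without adjustment 371 probes were under 0.05 (2.72% of those tested). The smallest adjusted p was 0.577 and all others were 0.999 or more. The median size of the interaction over kept probes was 0.105, and its 95th percentile was 0.406.

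The size of difference that remained possible was read from the 95% interval of each probe. The median half-width of that interval was 0.379, a 1.30-fold difference, and its 5th and 95th percentiles were 0.194 and 0.639. A pair of one-sided moderated tests in limma, adjusted by Benjamini-Hochberg, placed the interaction within 1 in either direction, a 2-fold difference between the genotypes' responses, for 13309 probes (97.4% of those tested). Within 0.5, a 1.41-fold difference, it placed 6880 probes (50.4% of those tested). For 353 probes the 2-fold limit was not reached, and 13622 of the 13662 were bounded within 2, a 4-fold difference. A single probe of median precision would have needed an interaction of 1.16 to be called alone.

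Precision followed the brightness of the probe. In the brightest of 3 equal groups of 4554 probes, with means of 8.67 to 14.7, the median half-width was 0.250 and 4040 probes (88.7%) were bounded within 0.5. In the middle group it was 0.367 with 2418 probes (53.1%), and in the dimmest, with means of 4.78 to 6.46, it was 0.508 with 422 probes (9.27%). At the edge of the filter, the 278 probes above the cut in exactly 4 arrays had a median mean of 4.96, and the 390 probes above it in exactly 3 arrays, left out, had 4.90.

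**Figure D1:**
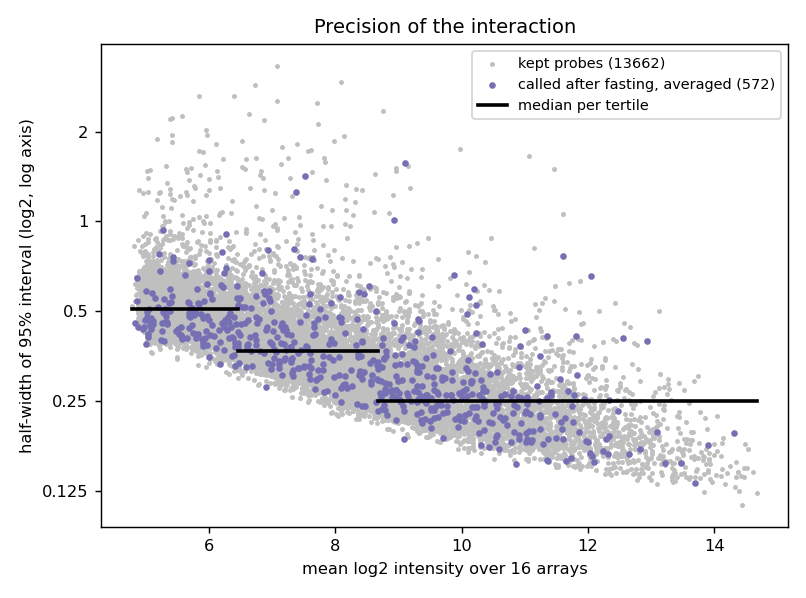
Half-width of the 95% interval of the interaction (log2) on a log axis against the mean log2 intensity of each of the 13662 kept probes, with the 572 probes called by averaged fasting in colour and the median of each brightness group as a black line. Wide intervals gather at the dim end, where the median half-width of the dimmest group is 0.508 against 0.250 in the brightest.

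Fasting itself changed many probes when averaged over both genotypes, a contrast orthogonal to the interaction in this balanced design. It called 305 probes higher (2.23% of those tested) and 267 lower (1.95% of those tested), for 493 genes. The dimmest Actb probe minus the brightest read -5.02 to -4.03 in AgRP-/- fasted, -6.39 to -4.68 in AgRP-/- fed, -5.61 to -4.47 in AgRP+/- fasted and -6.19 to -5.27 in AgRP+/- fed arrays, so it moved with feeding state, with overlap. With this difference as a covariate the averaged calls were 176, and its part in the result was not tested. The 2 fasting comparisons behind it, 1 per genotype, share no array. Of these 572 probes 571 had the same sign in both genotypes, against 66.9% of all kept probes, though a call of the average favours equal signs. The median size of the change was 0.346 in AgRP-/- and 0.350 in AgRP+/- mice. In 302 probes it was larger in AgRP-/- mice and in 270 larger in AgRP+/- mice. The 572 calls became 368 without AgRP-/- fasted replicate 1, 364 without AgRP-/- fed replicate 3, 301 without AgRP+/- fasted replicate 2 and 380 without AgRP+/- fed replicate 4.

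The median ratio of the change in AgRP-/- to that in AgRP+/- mice was 1.03, with quartiles of 0.762 and 1.39. Of the 572 intervals of the interaction 27 left out 0 (4.72%, against 2.72% of all kept probes), and its median was -0.011. The interaction was bounded within 1 for 556 of them (97.2%), close to the share of all kept probes, and within 0.5 for 338 (59.1%). For 543 of them the interval left out a complete loss of the response in either genotype. A call of the average needs a change that is large beside its error, so the choice of probes favours this count. A narrower claim was seldom possible: the interval held the ratio of the responses between 0.5 and 2 for 19 of the 572 probes.

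**Figure D2:**
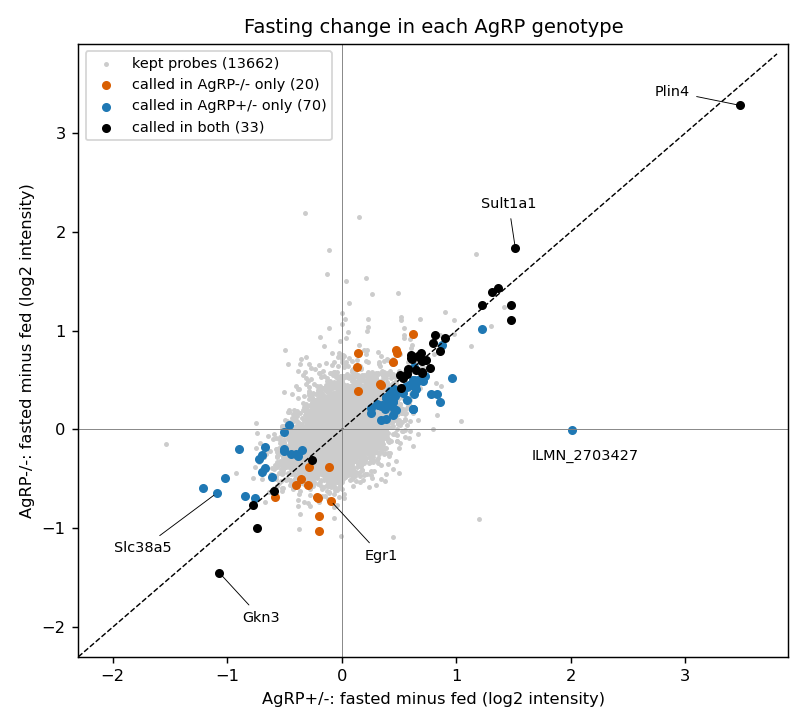
Fasting change (fasted minus fed, log2) in AgRP-/- mice on the vertical axis against that in AgRP+/- mice on the horizontal axis, 1 point per kept probe, with the line of equal change dashed. The 33 probes called in both genotypes lie along the line from Gkn3 to Plin4, and the unnamed probe ILMN_2703427 lies far to the right near a vertical value of 0.

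Called on its own, fasting in AgRP-/- mice gave 37 probes higher (0.271% of those tested) and 16 lower (0.117% of those tested). In AgRP+/- mice it gave 78 higher (0.571% of those tested) and 25 lower (0.183% of those tested). Both genotypes called 33 probes of 26 genes, which is 62.3% of the AgRP-/- calls and 32.0% of the AgRP+/- calls, with 28 higher, 5 lower and 0 in opposite directions. A further 20 probes were called in AgRP-/- mice alone and 70 in AgRP+/- mice alone. The AgRP-/- calls, 53 in all, became 35, 27 and 31 without AgRP-/- fasted replicates 1, 2 and 3 and 30 without AgRP-/- fed replicate 4. The AgRP+/- calls, 103 in all, became 49, 42 and 67 without AgRP+/- fasted replicates 1, 2 and 4 and 41, 63 and 68 without AgRP+/- fed replicates 1, 2 and 4.

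A call in a single genotype does not measure a difference between genotypes. The 103 probes called in AgRP+/- mice had a median size of 0.432 in AgRP-/- mice against 0.626 in AgRP+/- mice, and 101 kept their sign. The 53 probes called in AgRP-/- mice had a median size of 0.714 there against 0.605 in AgRP+/- mice, and all 53 kept their sign. Each set was larger in the genotype that chose it, so these sizes are descriptions and support no difference.

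The 33 probes called in both genotypes are described next, by role. Because both fasting contrasts chose them, their small interactions are not a test. All 33 intervals covered 0, 32 were bounded within 1 and 21 within 0.5, and the largest size was 0.38. The two-sided intervals of 4 reached past 1: those of Plin4, Gkn3 and 1 Cdkn1a probe, which passed the pair of one-sided tests, and that of Sult1a1, which did not.

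Among genes of lipid handling, Plin4, a coat protein of lipid droplets, gave the largest response in both genotypes. It read 8.88, 9.12, 8.71 and 8.91 in AgRP-/- fasted, 5.36, 5.90, 5.96 and 5.28 in AgRP-/- fed, 9.88, 9.53, 8.13 and 9.05 in AgRP+/- fasted, and 5.78, 5.21, 5.58 and 6.12 in AgRP+/- fed arrays. Every fasted array was above every fed array, and the AgRP+/- fasted arrays spread more widely than the AgRP-/- fasted ones. The change was 3.28 in AgRP-/- and 3.48 in AgRP+/- mice, and the interaction was -0.20 (95% interval -1.01 to 0.61). It ranged from -0.54 without AgRP+/- fasted replicate 3 to 0.045 without AgRP+/- fasted replicate 1, so its sign rested on single arrays. The 250 bases before the annotated start of Plin4 are shown because its response was the largest of the shared ones (RefSeq, GRCm38.p6, chr17:56109783-56110032, minus strand, 5′ to 3′).
Plin4 promoter: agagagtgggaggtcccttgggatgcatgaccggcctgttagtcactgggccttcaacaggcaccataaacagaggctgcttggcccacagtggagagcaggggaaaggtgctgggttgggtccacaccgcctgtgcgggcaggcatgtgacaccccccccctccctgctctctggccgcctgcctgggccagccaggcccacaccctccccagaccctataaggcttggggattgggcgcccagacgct
No glucocorticoid element core, spelled ACANNNTGT and identical on both strands, lies in that window. Of the 26 shared genes 19 had a promoter entry, in 21 windows of 300 bases, and 0 of these windows held the core, against 6.85% of 32851 promoters. The half-site TGTTCT, searched on both strands, was in 1 window, that of Sult1a1, against 19.0% of all promoters. With only 21 windows these counts make no contrast with the shares of all promoters, and glucocorticoid regulation of these genes was not tested.

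Angptl4, a secreted inhibitor of lipoprotein lipase, read 8.44, 8.09, 7.75 and 7.58 in AgRP-/- fasted and 7.15, 7.18, 6.75 and 6.96 in AgRP-/- fed arrays. In AgRP+/- mice it read 8.26, 7.83, 7.93 and 7.87 fasted and 7.36, 6.89, 7.06 and 7.33 fed. Fasted and fed arrays did not overlap in either genotype, and the interaction was 0.14 (95% interval -0.34 to 0.63). Pnpla2, the main triglyceride lipase of lipid droplets, changed by 0.52 in AgRP-/- and 0.53 in AgRP+/- mice, with an interaction of -0.01 (-0.34 to 0.31). Mfsd2a, the transporter of docosahexaenoic acid at the blood-brain barrier, changed by 0.92 in AgRP-/- and 0.90 in AgRP+/- mice, with an interaction of 0.02 (-0.40 to 0.44).

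Enzymes formed the next group. Etnppl, which breaks down phosphoethanolamine and is typical of astrocytes, had 2 probes called in both genotypes. The brighter probe read 9.92, 9.99, 9.95 and 9.98 in AgRP-/- fasted, 9.11, 9.23, 9.42 and 9.20 in AgRP-/- fed, 9.94, 9.89, 9.93 and 9.78 in AgRP+/- fasted, and 9.12, 9.39, 9.18 and 9.43 in AgRP+/- fed arrays. Its 8 fasted arrays lay within a narrow band above all 8 fed ones. The interactions of its probes were 0.12 (-0.12 to 0.36) and -0.0020 (-0.28 to 0.28).

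Smox, the spermine oxidase of polyamine breakdown, had 4 probes called in both genotypes, with interactions of -0.12, 0.15, -0.01 and 0.08. Its other kept probe changed by 0.63 in AgRP-/- and 0.60 in AgRP+/- mice and was called in neither. These probes share a gene and are not independent measurements. Prodh, which starts the breakdown of proline, changed by 0.75 in AgRP-/- and 0.67 in AgRP+/- mice, with an interaction of 0.08 (-0.23 to 0.38). Cyp2d22, a cytochrome P450, changed by 0.62 in AgRP-/- and 0.58 in AgRP+/- mice. Cbs, which turns homocysteine into cystathionine, changed by 0.57 in AgRP-/- and 0.70 in AgRP+/- mice, with an interaction of -0.12 (-0.49 to 0.24). The other kept probe of Cbs changed by 0.45 in AgRP-/- and 0.60 in AgRP+/- mice and was called in AgRP+/- mice only. Heph, a ferroxidase of iron export, had interactions of 0.08 (-0.44 to 0.59) and 0.11 (-0.28 to 0.49) at its 2 probes.

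Sult1a1, a phenol sulfotransferase, was the shared gene with the loosest bound. It read 9.96, 10.47, 9.72 and 9.50 in AgRP-/- fasted, 7.54, 7.94, 8.82 and 8.01 in AgRP-/- fed, 10.58, 9.80, 8.85 and 9.29 in AgRP+/- fasted, and 8.16, 7.32, 8.03 and 8.95 in AgRP+/- fed arrays. AgRP-/- arrays separated by feeding state, whereas AgRP+/- fasted replicate 3 lay below AgRP+/- fed replicate 4. Its interaction was 0.32 (-0.69 to 1.33), the 1 shared probe that could not be bounded within 1 (adjusted p = 0.0893 for the bound in limma).

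A channel subunit and regulators of transcription and the cell cycle followed. Lrrc8a, a subunit of the volume-regulated anion channel, read 8.56 to 8.86 in AgRP-/- fasted against 7.23 to 7.67 in AgRP-/- fed arrays, and 8.37 to 9.42 in AgRP+/- fasted against 7.16 to 7.44 in AgRP+/- fed arrays. Its interaction was -0.22 (-0.69 to 0.26), while its other kept probe changed by 0.30 in each genotype and was called in neither. Cdkn1a, an inhibitor of the cell cycle, had interactions of 0.07 and -0.37 at its 2 shared probes. Its other kept probe changed by 0.77 in AgRP-/- and 0.81 in AgRP+/- mice and was called in neither. Hr, a nuclear corepressor that thyroid hormone induces in brain, changed by 1.26 in AgRP-/- and 1.23 in AgRP+/- mice at its dim probe, with an interaction of 0.03 (-0.69 to 0.76). Its bright probe changed by 1.02 in AgRP-/- mice, where limma's adjusted p was 0.0531, and by 1.22 in AgRP+/- mice, where it was 0.0114.

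Genes of the cell surface and matrix included Htra1, a secreted serine protease, whose probes had interactions of -0.14 and -0.03, and Sdc4, a heparan sulfate proteoglycan, at -0.05 (-0.31 to 0.20). Itgad, an integrin chain, changed by 1.43 in AgRP-/- and 1.37 in AgRP+/- mice. Its other kept probes changed by 0.85 and 0.05 in AgRP-/- and by 1.12 and 0.17 in AgRP+/- mice, and neither was called in both. Mertk, a receptor for the uptake of dying cells, Timp4, a metalloproteinase inhibitor, Agt, the angiotensin precursor, and Pglyrp1, a peptidoglycan-binding protein, had interactions of 0.02, 0.04, -0.10 and -0.06.

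Lower in both genotypes were Cxcl12, Gkn3, Rnase1, Tst and Tubb2b. Cxcl12, a chemokine of vessel walls and meninges, read 9.23, 9.47, 9.45 and 9.95 in AgRP-/- fasted, 10.27, 10.02, 10.30 and 10.54 in AgRP-/- fed, 9.32, 9.19, 9.56 and 9.27 in AgRP+/- fasted, and 10.08, 10.15, 10.10 and 10.12 in AgRP+/- fed arrays. All fasted arrays were below all fed ones. The interaction was 0.02 (-0.35 to 0.39), although its dimmer probes read 0.37 and 0.16 in AgRP-/- and -0.26 and -0.09 in AgRP+/- mice and were not called. Gkn3, a secreted gastrokine family protein, decreased by 1.45 in AgRP-/- and by 1.07 in AgRP+/- mice, and its interaction of -0.38 (-1.06 to 0.30) was the largest in size of the shared probes. Tst, a sulfur transferase, decreased by 0.62 in AgRP-/- and by 0.59 in AgRP+/- mice (interaction -0.03, -0.33 to 0.28). Tubb2b, a beta tubulin, had the narrowest interval of the 33 (interaction -0.05, -0.20 to 0.11) at its brightest probe. Its 4 other kept probes were called in neither genotype, and the almost equally bright ILMN_2588051 changed by 0.04 in AgRP-/- and 0.06 in AgRP+/- mice. Rnase1, a secreted ribonuclease, had an interaction of -0.25 (-0.70 to 0.20).

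**Figure D3:**
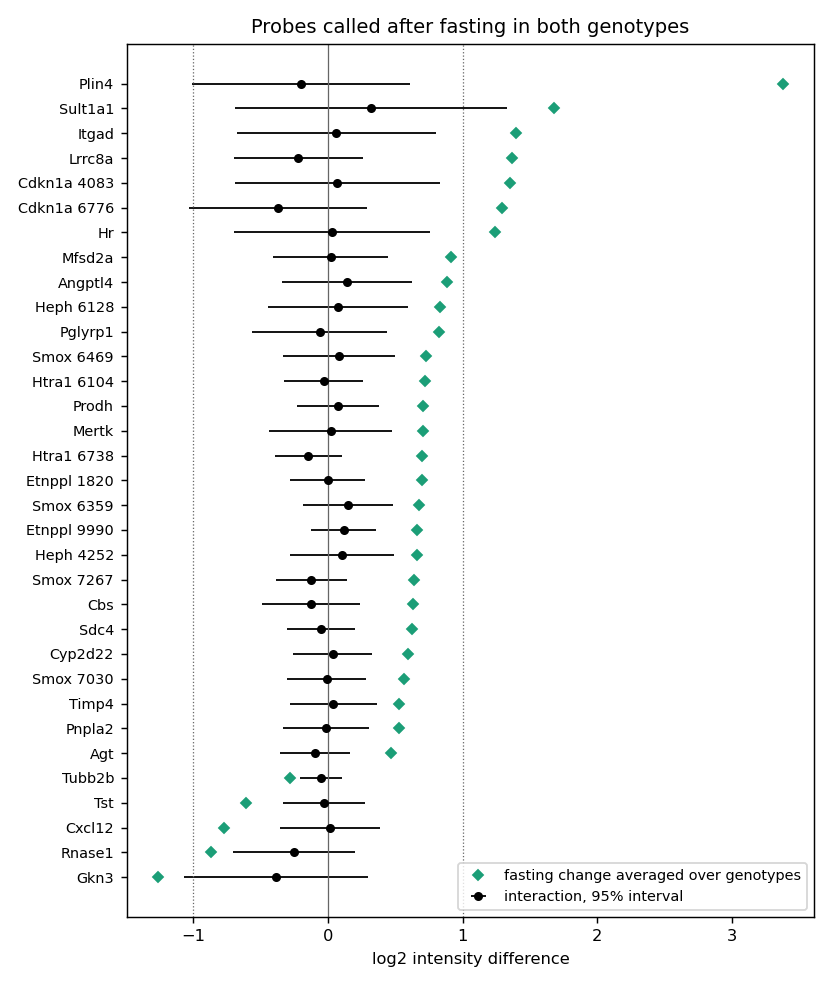
Interaction (AgRP-/- fasting change minus AgRP+/- fasting change, log2) with its 95% interval for the 33 probes called in both genotypes, 1 line per probe, with the fasting change averaged over the genotypes as diamonds and dotted lines at -1 and 1; where a gene has several probes the last digits of the probe follow its name. Every interval covers 0, from -0.38 for Gkn3 to 0.32 for Sult1a1 in the point values.

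The shared calls were not equally firm. Leaving out each of the 16 arrays in turn kept the averaged call of all 33 probes, and kept the call in both genotypes for 13 probes of 11 genes: Cxcl12, Cyp2d22, Etnppl, Htra1, Lrrc8a, Mfsd2a, Plin4, Prodh, Sdc4, Smox and Tst. The number called in both was 19 without AgRP+/- fed replicate 1 and 21 without AgRP+/- fasted replicate 2. With the mean of the dopamine transcripts Slc6a3, Chrna6 and Th as a covariate it was 1 (Plin4), and the averaged calls were then 33, while 97.3% of all kept probes were still bounded within 1.

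Neuropeptide Y, made in the same arcuate neurons as AgRP, is the transcript closest to the deleted gene. Npy read 10.23, 10.84, 11.09 and 10.50 in AgRP-/- fasted, 9.76, 9.93, 10.01 and 9.56 in AgRP-/- fed, 11.05, 10.46, 10.39 and 10.43 in AgRP+/- fasted, and 9.26, 9.55, 10.33 and 9.69 in AgRP+/- fed arrays. Fasted arrays were above fed arrays in each genotype, and AgRP+/- fed replicate 3 came within the range of the AgRP-/- fasted arrays. The change was 0.85 in AgRP-/- and 0.87 in AgRP+/- mice, and the averaged change of 0.86 was called (limma adjusted p = 0.0016). The interaction was -0.02 (-0.61 to 0.57), bounded within 1 (limma adjusted p = 0.0017) but not within 0.5. It ranged from -0.23 without AgRP+/- fed replicate 3 to 0.14 without AgRP+/- fasted replicate 1.

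Transcripts of the opposing arcuate neurons were not called by averaged fasting (limma adjusted p = 0.700 for Pomc and 0.894 for Cartpt). Pomc, the precursor of the melanocortin agonist that AgRP opposes, had an interaction of -0.11 (-0.71 to 0.48). Cartpt, made with it, had an interaction of -0.20 (-0.52 to 0.12), and of -0.35 (-0.69 to 0.0041) at its dimmer probe. Both were bounded within 1 (limma adjusted p = 0.0034 and 5.4e-05).

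Over 26 kept genes of feeding and other hypothalamic peptides, 1 was called higher and 3 lower by averaged fasting, against 222 higher and 189 lower of all 9530 named genes, and 0 had a called interaction. Over all 9530 named genes the median interaction was -0.0085, with 5001 below 0 and 4529 above. Over the 26 peptide genes it was -0.11, with 17 below 0 and 9 above. The extremes were -0.41 for Ghrh, growth hormone-releasing hormone, and 0.45 for Vip. Oxt, one of the 3 peptides called lower, read 12.43, 12.79, 12.78 and 12.81 in AgRP-/- fasted and 13.28, 13.29, 13.05 and 13.01 in AgRP-/- fed arrays. In AgRP+/- mice it read 12.59, 12.39, 13.04 and 13.05 fasted and 12.85, 13.19, 13.34 and 12.99 fed. AgRP-/- arrays separated by feeding state and AgRP+/- arrays overlapped, yet the interaction was -0.14 (-0.53 to 0.26). The averaged call of Oxt was lost without AgRP-/- fasted replicate 1, AgRP+/- fasted replicate 2 or AgRP+/- fed replicate 3 (adjusted p up to 0.0565 in limma). Gal and Nts, the other 2 called lower, had interactions of 0.20 (-0.21 to 0.61) and 0.28 (-0.29 to 0.85).

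Of 19 kept receptors of appetite signals 1 was called lower and 0 higher by averaged fasting, against 189 lower and 222 higher of the 9530 named genes. Of the 19 interactions 10 were above 0 and 9 below, and 17 were bounded within 1, against 9279 of the 9530. Trhr, the receptor of thyrotropin-releasing hormone, was the called one, and its interaction was -0.17 (-0.50 to 0.17). The melanocortin receptor genes Mc3r and Mc4r, through which AgRP acts, had interactions of -0.15 and 0.25. The lowest value was that of Crhr1, a receptor of corticotropin-releasing hormone, at -0.61 (-1.13 to -0.08, adjusted p = 0.999 in limma), whereas its dimmer probe had 0.29 (-0.30 to 0.89).

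Of the 27 kept glucocorticoid-induced genes, a list drawn up with earlier results of these arrays known, averaged fasting called 13 higher and 0 lower, and 6 were called in both genotypes. Over all 9530 named genes, each at its brightest probe, these counts were 222 higher, 189 lower and 25 in both genotypes. The median change was 0.41 in AgRP-/- and 0.46 in AgRP+/- mice, against -0.0065 and -0.0015 over all named genes. Of the 27 interactions 25 were bounded within 1, against 9279 of the 9530 named genes. The interactions of the list had a median of -0.018, with 13 above 0 and 14 below. The highest was that of Gpd1, a glycerol-3-phosphate dehydrogenase, at 0.51 (0.13 to 0.89). Pdk4, a kinase that shuts pyruvate out of oxidation, had an interaction of -0.05 (-0.60 to 0.49).

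Of 21 kept vessel-wall and barrier genes, also listed with earlier results known, 4 were called higher and 7 lower by averaged fasting and 6 in both genotypes, against 222, 189 and 25 of the 9530 named genes. Slc38a5, a glutamine transporter of brain endothelium, read 7.63, 7.63, 7.84 and 7.39 in AgRP-/- fasted, 8.25, 8.17, 8.50 and 8.15 in AgRP-/- fed, 6.75, 6.85, 7.53 and 6.68 in AgRP+/- fasted, and 8.34, 7.94, 8.04 and 7.86 in AgRP+/- fed arrays. Fasted arrays were below fed ones in both genotypes, and 3 of the AgRP+/- fasted arrays were below all AgRP-/- fasted arrays. The change was -0.64 in AgRP-/- and -1.09 in AgRP+/- mice, with an interaction of 0.45 (-0.02 to 0.92, unadjusted p = 0.0613 and adjusted p = 0.999 in limma). Itm2a, a membrane protein of endothelium, decreased by 0.39 in AgRP-/- and by 0.67 in AgRP+/- mice, with an interaction of 0.28 (0.03 to 0.53).

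**Figure D4:**
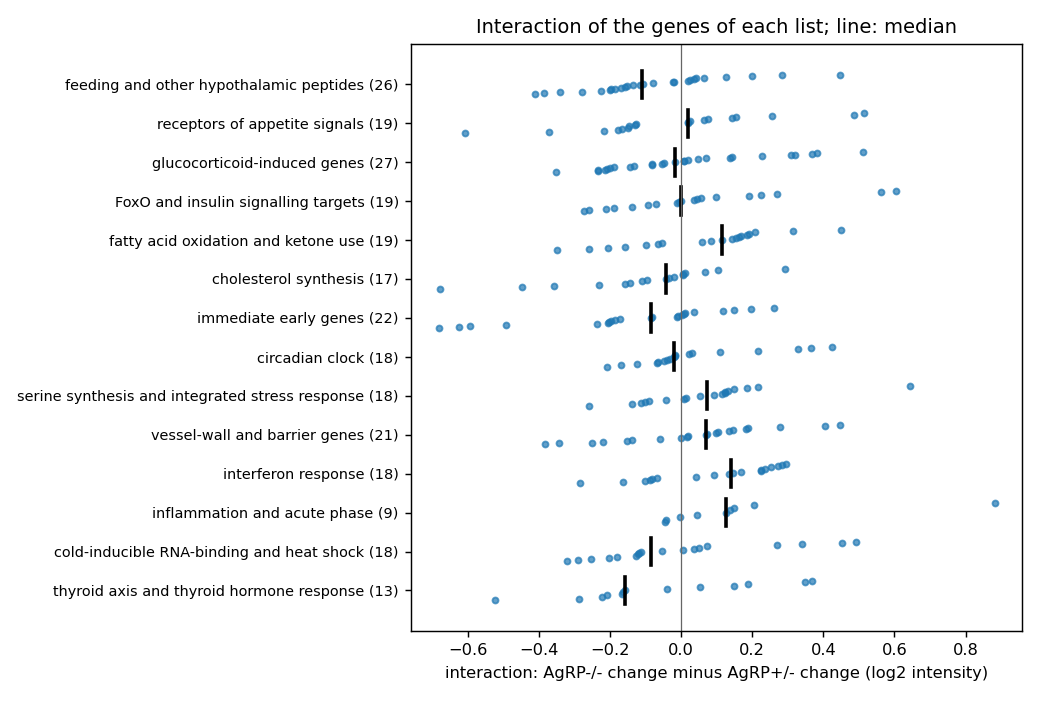
Interaction (log2) of each kept gene in 14 gene lists, 1 point per gene and 1 line per list, with the list median as a black bar and the number of kept genes in brackets. Medians lie between -0.16 and 0.14, and the lowest single values are -0.68 for Egr4 (immediate early genes) and -0.68 for Tm7sf2 (cholesterol synthesis).

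Egr1 and Egr4 were among the 8 genes with the largest interactions of those called in 1 genotype, and neither passed the interaction test. Egr1, a zinc finger factor that firing neurons induce, read 10.60, 10.56, 10.76 and 10.59 in AgRP-/- fasted, 11.47, 11.31, 11.44 and 11.18 in AgRP-/- fed, 11.27, 11.18, 11.50 and 11.79 in AgRP+/- fasted, and 11.41, 11.37, 11.90 and 11.44 in AgRP+/- fed arrays. The 4 AgRP-/- fasted arrays lay below the other 12, which overlapped. The change was -0.72 in AgRP-/- and -0.10 in AgRP+/- mice, and the interaction was -0.62 (-0.98 to -0.27, unadjusted p = 0.00155). Adjusted over all probes in limma this was 0.999. The interaction stayed between -0.75 and -0.51 over 29 alternatives in processing and in the arrays used, with a smallest adjusted p of 0.600 in limma.

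Egr4, a related factor, read 6.11, 5.95, 6.62 and 6.30 in AgRP-/- fasted, 6.97, 7.29, 7.25 and 6.99 in AgRP-/- fed, 7.03, 6.84, 7.40 and 7.12 in AgRP+/- fasted, and 7.03, 6.82, 7.69 and 7.65 in AgRP+/- fed arrays. As for Egr1, the AgRP-/- fasted arrays were the lowest of all and the rest overlapped. Its interaction was -0.68 (-1.23 to -0.13, unadjusted p = 0.0186, adjusted p = 0.999 in limma). Its call in AgRP-/- mice was lost without fasted replicate 1, 2 or 4 or any fed AgRP-/- array, and its averaged call without any of 7 single arrays (adjusted p up to 0.0651 in limma). The 250 bases before the start of Egr4 are shown as an example of a gene called in 1 genotype, and no window of Egr1 is shown. Capitals mark the 1 match to the glucocorticoid element core (RefSeq, GRCm38.p6, chr6:85513590-85513839, minus strand, 5′ to 3′).
Egr4 promoter: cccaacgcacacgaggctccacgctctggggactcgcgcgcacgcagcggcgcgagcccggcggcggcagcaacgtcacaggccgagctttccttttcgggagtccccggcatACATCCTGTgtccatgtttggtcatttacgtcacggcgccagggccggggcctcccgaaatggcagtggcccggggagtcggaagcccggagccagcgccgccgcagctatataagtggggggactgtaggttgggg
The core was in 6.85% of 32851 promoter windows of 300 bases, so 1 gene with a match and 1 without make no contrast. A match of these letters is a description of the window and does not show binding.

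Fos, a subunit of the AP-1 factor, read 7.11, 7.59, 7.90 and 7.69 in AgRP-/- fasted, 8.75, 8.27, 8.79 and 7.90 in AgRP-/- fed, 8.97, 8.22, 8.47 and 8.58 in AgRP+/- fasted, and 8.93, 8.61, 9.10 and 9.05 in AgRP+/- fed arrays. The AgRP-/- fasted arrays were again the lowest, touching AgRP-/- fed replicate 4, and the interaction of -0.49 covered 0 (-1.07 to 0.09). Crem, a cAMP-responsive repressor and activator, had an interaction of -0.59 (unadjusted p = 0.021) at its brightest probe, and of -0.14 and 0.42 at its other 2, which disagree. Of the 22 kept immediate early genes 3 (Fos, Egr1 and Egr4) were called lower by averaged fasting and 0 higher, against 189 lower and 222 higher of the 9530 named genes. Their interactions had a median of -0.083, with 14 below 0, 8 above and 3 under an unadjusted 0.05, against 252 of 9530 named genes.

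**Figure D5:**
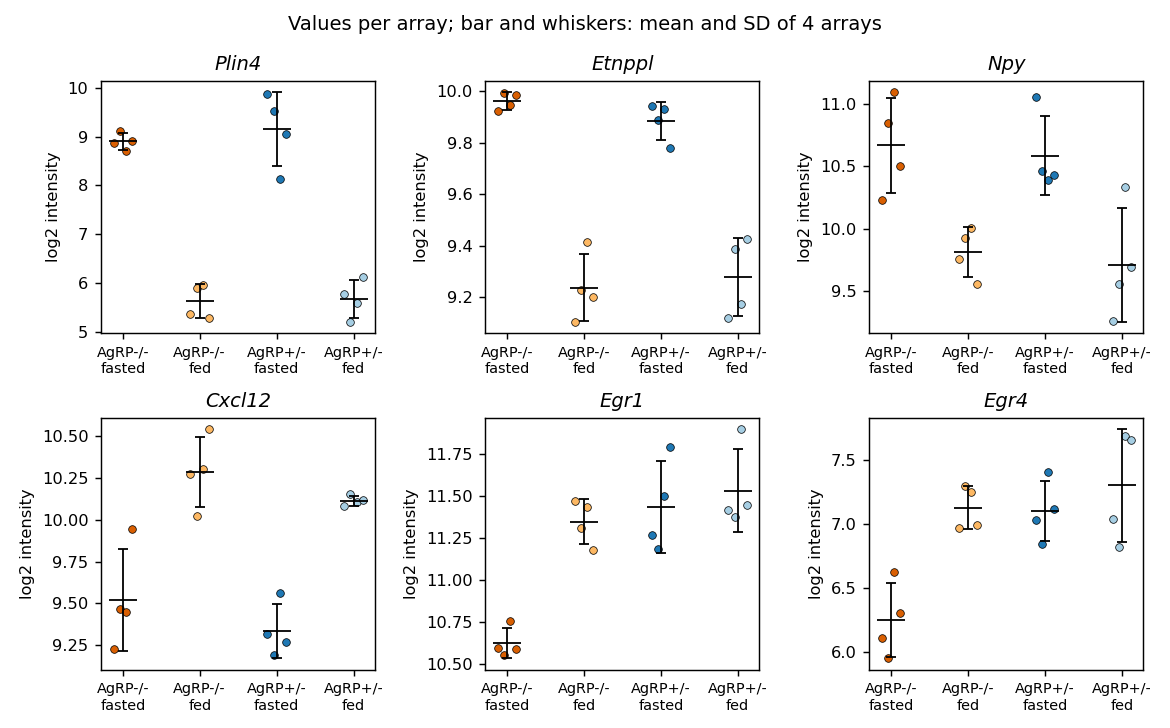
Log2 intensity in each of the 16 arrays for Plin4, Etnppl, Npy, Cxcl12, Egr1 and Egr4, with groups ordered AgRP-/- fasted, AgRP-/- fed, AgRP+/- fasted and AgRP+/- fed and the group mean and SD as bar and whiskers (n = 4). Fasted arrays of both genotypes shift alike for Plin4, while for Egr1 the AgRP-/- fasted arrays alone lie low, between 10.56 and 10.76.

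Other genes called in 1 genotype, with the largest interactions among such calls, pointed both ways. Ttc33, a tetratricopeptide repeat protein, read 5.19, 5.50, 5.56 and 5.93 in AgRP-/- fasted, 6.43, 6.55, 6.60 and 6.70 in AgRP-/- fed, 6.01, 5.66, 5.38 and 5.46 in AgRP+/- fasted, and 5.88, 5.62, 5.93 and 5.90 in AgRP+/- fed arrays. Here the AgRP-/- fed arrays stood above the other 12, so the interaction of -0.82 (-1.30 to -0.35) came from a high fed group and not from a low fasted one. Its size could not be bounded within 1, but the 2 other kept probes of Ttc33, both brighter, had interactions of 0.15 (-0.12 to 0.42) and 0.31 (-0.04 to 0.65), opposite in sign. Tbc1d7, a subunit of the TSC complex that restrains mTORC1, changed by -0.20 in AgRP-/- and -0.89 in AgRP+/- mice (interaction 0.70, 0.14 to 1.25), and its 2 brighter probes had interactions of 0.08 (-0.17 to 0.33) and 0.20 (-0.15 to 0.55). Hsd17b11, a dehydrogenase of lipid droplets, changed by 0.28 in AgRP-/- and 0.86 in AgRP+/- mice (interaction -0.58, -1.14 to -0.02, and -0.43 at its dimmer probe), and its interaction was -0.36 without AgRP-/- fasted replicate 1. Lhx8, a transcription factor of forebrain neurons, changed by -0.49 in AgRP-/- and -1.02 in AgRP+/- mice (interaction 0.53, -0.06 to 1.13). Rpl3l had an interaction of 0.63 (0.14 to 1.12) and Bet1, a protein of vesicle transport, of 0.50 (0.19 to 0.82). Adjusted p in limma was 0.999 for each of these. Tbc1d7, Hsd17b11, Lhx8, Rpl3l and Bet1 each lost the call in at least 1 of the 16 fits without an array, whereas this probe of Ttc33 and that of Egr1 kept theirs in all 16.

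Rbm3, which binds RNA and is cold-induced, was also called in AgRP-/- mice alone. It read 11.38, 11.53, 11.49 and 11.75 in AgRP-/- fasted, 10.28, 10.78, 10.60 and 10.65 in AgRP-/- fed, 10.78, 11.75, 11.17 and 11.35 in AgRP+/- fasted, and 10.55, 10.51, 10.77 and 10.72 in AgRP+/- fed arrays. Fasted arrays were above fed arrays in both genotypes, and the interaction was 0.34 (-0.09 to 0.77). Its second kept probe, close to the filter at a mean of 5.10, had an interaction of -0.59 (-1.19 to 0.02), so the probes of Rbm3 disagree.

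Among the 10 most negative interactions with an unadjusted p under 0.05, Erdr1 read 7.20, 8.06, 7.15 and 8.06 in AgRP-/- fasted, 7.92, 8.82, 8.98 and 9.10 in AgRP-/- fed, 7.65, 8.92, 9.11 and 8.48 in AgRP+/- fasted, and 7.35, 8.68, 7.91 and 8.41 in AgRP+/- fed arrays. All 4 groups overlapped, and the interaction was -1.54 (-2.50 to -0.57). Fgf1, a fibroblast growth factor, had -0.94 (-1.59 to -0.29), with AgRP-/- fasted replicate 2 at 7.87 and the other 3 at 8.99 to 9.13. Phex, an endopeptidase, had -0.75 and Tm7sf2, a sterol reductase, -0.68. The rest of the 10 were Egr4, described above, H2ac22 (-0.81), Abhd17c (-0.71), Samd8 (-0.70), Frzb (-0.69) and Emid1 (-0.67).

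On the positive side Myl2, a myosin light chain of heart and slow muscle, had 1.92 (0.07 to 3.78), and 1.09 without AgRP-/- fasted replicate 3. It read 7.50, 5.45, 9.88 and 6.72 in AgRP-/- fasted, 5.24, 6.41, 5.49 and 5.15 in AgRP-/- fed, 6.84, 6.58, 6.38 and 6.24 in AgRP+/- fasted, and 7.45, 5.18, 6.54 and 7.31 in AgRP+/- fed arrays. AgRP-/- fasted replicate 3 was highest, and it was also highest for Mb, the muscle oxygen carrier myoglobin, at 8.49 against 4.85 to 6.09 in the other 3 arrays of its group. Cga, a pituitary hormone subunit (1.30, and 0.81 without AgRP-/- fasted replicate 2), Alas2, an enzyme of heme synthesis in red cells (0.76), and the organic anion transporter Slc22a8 (1.05) were also among the 10 most positive. The rest of the 10 were Mb (1.46), Kansl1l (1.39), Thsd4 (0.95), Slc13a3 (0.90), Prkaa2 (0.88) and Moxd1 (0.71). Markers of mural and meningeal cells (12 kept) averaged 7.37 to 8.20 in AgRP-/- fasted, 7.27 to 8.24 in AgRP-/- fed, 7.09 to 7.82 in AgRP+/- fasted and 6.97 to 7.96 in AgRP+/- fed arrays, and the interaction of this mean was 0.354. The 2 kept markers of the anterior pituitary, Cga and Chgb, averaged 7.78 to 9.08 in AgRP-/- fasted, 7.76 to 8.52 in AgRP-/- fed, 7.72 to 7.87 in AgRP+/- fasted and 7.83 to 8.47 in AgRP+/- fed arrays, with an interaction of 0.617. That value came from Cga, since Chgb had -0.064. Gh and Prl, which missed the filter, did not follow Cga. In AgRP-/- fasted replicate 2 Cga read 7.17, Gh 4.27 and Prl 4.40. In the arrays where Gh and Prl stood out, AgRP-/- fed replicate 1 and AgRP+/- fed replicate 2, Cga read 4.62 and 4.74. The 4 kept erythrocyte markers, Alas2 among them, averaged 7.59 to 8.20 in AgRP-/- fasted, 7.40 to 8.20 in AgRP-/- fed, 7.46 to 8.04 in AgRP+/- fasted and 7.37 to 8.31 in AgRP+/- fed arrays, with an interaction of 0.315. The part of such tissue in these values was not tested.

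The probe with the smallest interaction p, ILMN_2703427, has no gene symbol in the annotation. It sat at the floor in AgRP-/- mice (4.43 to 4.62 fasted and 4.46 to 4.57 fed) and averaged 10.4 in AgRP+/- fasted against 8.36 in AgRP+/- fed arrays, so its interaction of -2.01 (-2.81 to -1.21) is set by that floor. It was called without AgRP+/- fed replicate 3 (-2.33, adjusted p = 0.00592 in limma), the 1 interaction call over the 29 alternatives run.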

How the data were processed

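Per the labels' protocols, total hypothalamic RNA was extracted with DNase treatment, checked on a Bioanalyser, amplified to biotinylated cRNA and hybridised to Illumina mouse bead arrays. The deposited table holds log2 intensities that the authors had normalized between arrays, by a method that no source used here gives. The submitters' processing notes name limma without a version. Detection p-values, slides and scan batches were not used here, so dim values could not be separated from background. Column medians differed by at most 0.00855. Of the 25697 probes 23978 had 1 gene symbol in the platform annotation, which can be old, 0 had several and 1719 had none.

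Values were used as deposited. Probes above the table median of 5.12 in at least 4 of 16 arrays were kept (13662, 53.2%). A model with 1 coefficient per group was fitted with limma 3.58.1 in R 4.3.3 (lmFit, eBayes with trend, 12 residual degrees of freedom), after a test on simulated data. P-values were adjusted by Benjamini-Hochberg over kept probes and called under 0.05. Bounds came from a pair of one-sided moderated tests at margins of 0.5, 1 and 2, adjusted in the same way. A list represents each gene by its brightest kept probe.

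Named were Npy, Pomc and Cartpt, all genes called in both genotypes, and the 8 largest interactions among genes called in 1 genotype. Also named were the 10 most positive and 10 most negative interactions with an unadjusted p under 0.05. Each list offered its largest interaction and the members with the smallest p among those called by averaged fasting. Not all of these list members are described. Slc38a5, Itm2a and Rbm3 came in through their lists, and Crem, Mc3r, Mc4r and Ghrh were chosen after their values were seen. Members and lists were chosen with earlier results of these data known. Same-numbered arrays of different groups correlated between -0.187 and 0.299 over 24 pairs in their deviations from the group means, with a median of 0.022. Differently numbered arrays correlated between -0.330 and 0.401 over 72 pairs, with a median of -0.019. Correlations above 0.1 were found in 7 of the 24 and 17 of the 72 pairs. Replicate numbers were not taken as pairs, and a fit with them as a block is given below.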

Additional observations from a re-analysis of the deposited data

Results flagged for a closer look

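In groups of 4 arrays, 24 of 408 combinations of a named probe and a group held 1 array that stood apart from the other 3 by Dixon's criterion (gap over range above 0.829). Chance gives about 1 in 20, so a count of this size is near what chance gives. No array carried more than 3 of them. All flags were of this 1 kind, and no interaction was called in the reported fit.

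Among shared genes, Cdkn1a read 7.461 in AgRP+/- fed replicate 3 against 6.711 to 6.81 in the other 3 arrays of its group. Etnppl read 8.921 in AgRP-/- fed replicate 1 against 9.018 to 9.026, and Htra1 10.15 in AgRP-/- fed replicate 4 against 10.02 to 10.03. Pglyrp1 read 6.231 in AgRP+/- fed replicate 1 against 6.746 to 6.823, and Tst 8.806 in the same array against 8.645 to 8.665.

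For peptides, Npy read 11.05 in AgRP+/- fasted replicate 1 while the rest of its group read 10.39 to 10.46. Pomc read 8.86 in AgRP+/- fed replicate 3 against 7.727 to 7.897, and Oxt 12.43 in AgRP-/- fasted replicate 1 against 12.78 to 12.81.

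Of the genes with large interactions, Egr1 read 11.9 in AgRP+/- fed replicate 3 against 11.37 to 11.44, and Ttc33 5.62 in AgRP+/- fed replicate 2 against 5.881 to 5.928. Rpl3l read 5.652 in AgRP-/- fed replicate 2 against 5.116 to 5.156. Fgf1 read 7.866 in AgRP-/- fasted replicate 2 against 8.992 to 9.135, and 9.554 in AgRP+/- fasted replicate 3 against 9.201 to 9.256. Phex read 4.568 in AgRP-/- fasted replicate 1 against 4.721 to 4.743, and 4.576 in AgRP-/- fed replicate 1 against 5.128 to 5.235. Cga read 6.087 in AgRP-/- fed replicate 3 against 4.369 to 4.622, and Mb 5.996 in AgRP+/- fasted replicate 1 against 5.569 to 5.609. The unnamed probe ILMN_2703427 read 11.24 in AgRP+/- fasted replicate 1 against 10 to 10.2.

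Among other list members, Igfbp2 read 7.802 in AgRP-/- fed replicate 3 against 5.182 to 5.629. Nsdhl read 6.966 in AgRP-/- fasted replicate 3 against 7.406 to 7.417, and Rora 8.315 in the same array against 9.004 to 9.063. Sesn1 read 9.988 in AgRP-/- fasted replicate 4 against 10.14 to 10.17. Pdk4 read 5.791 in AgRP+/- fed replicate 4 against 6.188 to 6.259, and Thra 5.166 in AgRP+/- fed replicate 2 against 4.637 to 4.691.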

How the results depend on the processing

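Over 29 alternatives, of which 16 left out 1 array each, interaction calls stayed at 0 except for the 1 call without AgRP+/- fed replicate 3, so leaving out an array gave 0 to 1. Probes with an unadjusted interaction p under 0.05 numbered 371 in the reported fit and 913 with no filter, where 25697 probes were tested. With the replicate number as a block, calls were 0 for the interaction (smallest adjusted p 0.235), 90 for AgRP-/-, 113 for AgRP+/-, 630 averaged and 49 shared. Array weights gave 143 calls in AgRP-/- mice and 56 shared calls, with a smallest adjusted interaction p of 0.0700. No intensity trend gave 29 calls in AgRP-/- mice and 19 shared calls. An ordinary linear model gave 20 calls in AgRP-/- mice, 47 in AgRP+/- mice and 13 shared. Without the 2 arrays highest in Gh and Prl, AgRP+/- calls were 45 and shared calls 18. The dopamine covariate left 1 call in AgRP-/- mice, 19 in AgRP+/- mice, 33 averaged and 1 shared. The Actb covariate (dimmest minus brightest Actb probe) gave 83 calls in AgRP-/- mice, 63 in AgRP+/- mice and 176 averaged. Leaving out an array gave 27 to 73 calls in AgRP-/- mice, 41 to 107 in AgRP+/- mice, 301 to 560 averaged and 19 to 39 shared. The cause of these moves was not tested.

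Probes bounded within 1 numbered 25329 with no filter and 6642 with the stricter filter, since 25697 and 6719 probes were tested, and 13184 to 13296 when an array was left out. Their share of the probes tested lay between 96.0% and 98.9% over all 29 alternatives. Limits: 4 arrays per group, unknown independence of the arrays, a heterozygous comparison genotype, whole hypothalamus in which a response of few neurons is diluted, and no measure of signal over background for dim probes.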

Other observations

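Lists not described above had these interactions, given as values. Fatty acid oxidation and ketone genes (19 kept) had a median of 0.12, with 12 above 0 and 7 below. All 19 were bounded within 1, as were 9279 of the 9530 named genes. Averaged fasting called 4 of the 19 higher and 0 lower, against 222 higher and 189 lower of the 9530. The 4 were Angptl4, Pdk4, Acat1, an enzyme of ketone use, and Ppargc1a, a coactivator of mitochondrial genes. Acat1 changed by 0.68 in AgRP-/- and 0.23 in AgRP+/- mice (interaction 0.45, -0.09 to 0.99), and Ppargc1a by 0.50 in AgRP-/- and 0.18 in AgRP+/- mice (interaction 0.32, -0.07 to 0.70). The averaged calls of both are close to the threshold (limma adjusted p = 0.0491 and 0.0446). Acat1 lost its call in 12 and Ppargc1a in 13 of 16 fits without an array. Cholesterol synthesis genes (17 kept) had a median of -0.042, and Tm7sf2 had the largest in size at -0.68 (-1.08 to -0.28). Interferon response genes (18 kept) had a median of 0.14 with 12 above 0. Averaged fasting called 3 of these lower and 0 higher, against 189 lower and 222 higher of the 9530 named genes. Gbp2, Gbp3 and Ifit3, the 3 called, had interactions of 0.30, -0.10 and 0.22.

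Circadian clock genes (18 kept) had a median of -0.019, and the clock output genes Dbp and Ciart, both called lower by averaged fasting, had interactions of -0.04 (-0.29 to 0.21) and -0.02 (-0.37 to 0.33). Genes of the thyroid axis (13 kept) had a median of -0.16, and Thra, a thyroid hormone receptor, had -0.52 (-1.02 to -0.03). This interaction of Thra was not called, with a smallest adjusted p over the alternatives of 0.999 in limma. Its AgRP+/- fed arrays were dim, at 4.64 to 5.17. Inflammation genes (9 kept) had a median of 0.13, with Lrg1, an acute phase glycoprotein, at 0.88 (-0.10 to 1.87). Cirbp, a cold-induced RNA-binding protein like Rbm3, changed by 0.42 in AgRP-/- and 0.35 in AgRP+/- mice (interaction 0.07, -0.21 to 0.36). FoxO and insulin signalling targets (19 kept) had a median of -0.00087, and genes of serine synthesis and the integrated stress response (18 kept) one of 0.073. In the list of serine synthesis Psat1, an enzyme of serine synthesis, changed by 0.46 in AgRP-/- and 0.33 in AgRP+/- mice (interaction 0.12, -0.15 to 0.40). Markers of hypothalamic neurons (13 kept) had a median of -0.14, with 11 below 0 and 2 above, against 5001 and 4529 of the 9530 named genes. Of these markers Hcrt, Pmch, Oxt, Avp, Pomc, Npy, Cartpt, Trh and Ghrh are also in the list of peptides, so the 2 lists are not independent. Markers of astrocytes (12 kept) had a median of -0.062.

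The largest interactions regardless of p had very wide intervals. Pdrg1 had 2.51 (-0.43 to 5.45), Dennd2a -2.10 (-4.23 to 0.03) and Slc6a12, a transporter of betaine and GABA, 2.00 (-0.29 to 4.29). Within single groups their arrays spread widely: Pdrg1 read 4.45 to 9.31 in AgRP-/- fed and 4.72 to 9.85 in AgRP+/- fasted arrays.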
